A study of Mus musculus with 32 samples.

Results

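The response of the brain of 5-day-old mice (P5) to hypoxia-ischemia (HI) was followed between 12 and 24 h after the insult, to see which of its transcription effects faded and which grew. The comparison was between 6 of the 32 microarrays of the series, 3 at 12 h and 3 at 24 h. Its error was estimated from all 12 P5 arrays, at 3, 6, 12 and 24 h. Each array gave, for every probe, the log2 ratio of the HI signal over the naive signal, called the HI ratio below, on which 0 means equal signals and 1 a 2-fold higher HI signal. The measure was the paired difference of HI ratios, 24 h minus 12 h, between the arrays that carried the same replicate letter and lay on the same slide. Of the 39429 probes, 19079 had a mean processed signal of at least 100 in the HI or the naive channel at either time and were tested, and these represented 12250 named genes. The selection used signal level and not the difference itself, although a probe could pass through a single channel and time at which it was high.

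Pups were NMRI mice. In the HI group the right carotid artery was permanently ligated under isoflurane at P5, and after a rest with the mother the pups breathed a low-oxygen gas mixture. The hemisphere on the ligated side, freed of the olfactory bulb, was collected, pooled over several animals and labelled with Cy5. Naive littermates that had neither operation nor hypoxia gave right hemispheres at the same times, also pooled, and these were labelled with Cy3 on the same array. No HI array had its dyes swapped, but a dye effect that is constant for a probe is subtracted out of the difference between times. The naive group was not sham-operated, so that anaesthesia, ligature and hypoxia cannot be told apart. In such bulk tissue, fewer cells of a type and less RNA per cell cannot be told apart either.

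Signal was similar across the 6 arrays: per array, the share of probes that stood well above background was 64.5% to 69.7% for naive RNA and 65.1% to 71.5% for HI RNA, and no spot was saturated. Replicate HI ratios were more alike at 12 h (Pearson's r across tested probes 0.651 to 0.782) than at 24 h (0.385 to 0.647). The 12 h array was at position 3 and the 24 h array at position 4 of every slide, so time and position cannot be told apart. All 15 neuron and all 15 astrocyte marker genes were bright enough to be tested, against 4 of 14 lymphocyte and 1 of 8 pituitary markers.

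After HI, neurons and glia first switch on immediate early genes, which encode transcription factors that answer depolarisation and stress within minutes, and heat shock proteins, which hold damaged proteins in solution. Chemokines and interferon-stimulated genes follow, as resident microglia and vessel cells call in leukocytes. Later, microglia and astrocytes take on reactive states and clear debris, with genes such as Trem2, Gpnmb and Gfap.

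The difference between 24 h and 12 h was called for 27 of the 19079 probes (0.142%), by limma with slide as a block, an adjusted p under 0.05 and a difference over 1.5-fold. Of these, 7 were higher at 24 h (0.0367%) and 20 lower (0.105%). Their adjusted p-values lay between 0.0474 and 0.0495, just under the threshold, and 34 probes passed when no size was required. At an unadjusted p under 0.05, 2609 probes differed (13.7%). These calls were fragile. Without the block, limma called 0 probes (1768 at an unadjusted p under 0.05). Fitted to only the 6 arrays at 12 and 24 h, it called 0 (1933), with a lowest adjusted p of 0.292. Leaving out the 12 h array of slide 1 or 2 or the 24 h array of slide 1 or 3 also left 0, and leaving out the 12 h array of slide 3 left 1. The median difference over all tested probes was 0.02.

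Of the 20 probes that fell, 13 had no gene name. Against naive, 19 of the 20 had been called higher at 12 h (3.51% of all tested probes were) and 19 at 6 h (2.96%). At 24 h 3 were still called higher (2.0%). The 12 h and 24 h ratios are parts of the difference, so these counts are a description. Hspb1, a small heat shock protein that protects against protein aggregation, had HI ratios of 1.88, 1.82 and 1.26 on the arrays of slides 1, 2 and 3 at 12 h and 0.85, 0.72 and 0.19 at 24 h. The times did not overlap, and slide 3 was the lowest at both. The difference was -1.06 (SE 0.124, adjusted p = 0.0474), and the HI ratio stayed above 0 on every array. Its scanner signal in the HI channel was 3500, 7800 and 2090 at 12 h and 1390, 2620 and 607 at 24 h, against naive signals of 953, 2210 and 871 and then 769, 1590 and 531.

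The promoter of Hspb1 is shown because it holds the letters of a heat shock element, GAANNTTC, at 2 places, in capitals. It covers the 250 bases before the gene's start (RefSeq, GRCm38.p6, chr5:135887669-135887918, plus strand):
Hspb1: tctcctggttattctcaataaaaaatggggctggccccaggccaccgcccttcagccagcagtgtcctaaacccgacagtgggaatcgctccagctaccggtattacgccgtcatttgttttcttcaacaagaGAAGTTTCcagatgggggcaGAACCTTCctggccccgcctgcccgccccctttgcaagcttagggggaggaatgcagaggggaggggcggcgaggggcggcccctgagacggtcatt
These letters, which read the same on both strands, were present in 7 of the 27 promoters of the heat shock and unfolded protein list (25.9%) and in 7.73% of 27025 promoters. A match describes the letters only.

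Esm1, a proteoglycan secreted by endothelial cells under VEGF and inflammatory signals, had HI ratios of 1.51, 0.82 and 0.94 at 12 h and 0.48, -0.01 and -0.12 at 24 h. It fell by 0.97 (SE 0.142, adjusted p = 0.0474) and was near the naive level on slides 2 and 3. Its mean signal was 163 in the HI channel at 12 h and between 61.0 and 78.3 otherwise, so it passed the signal filter only where it was high; 3 of the 27 called probes passed in 1 channel and time only. Cited1, a transcriptional co-regulator, fell by 0.80 (SE 0.0952, adjusted p = 0.0474), from 1.62, 1.54 and 1.28 to 0.79, 0.73 and 0.52. All of its 24 h values were still above 0. Ccl17, a chemokine that attracts T cells, fell by 0.79 (SE 0.119, adjusted p = 0.0495), from 0.97, 0.92 and 0.66 to 0.38, 0.19 and -0.37.

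Mlf1, which encodes a protein that shuttles between nucleus and cytoplasm, went from 0.65, 0.72 and 0.69 to 0.08, -0.21 and -0.03 (difference -0.74, SE 0.111, adjusted p = 0.0495). It had been higher at 6 h on every slide (0.76, 1.16 and 0.97) and was level with naive at 24 h. Mfap4, a protein of elastic microfibrils, crossed 0 instead. Its HI ratios were 0.14, 0.58 and 0.38 at 12 h and -0.47, -0.47 and -0.37 at 24 h (difference -0.80, SE 0.102, adjusted p = 0.0474), although it was not called against naive at either time. Snhg12, a long noncoding RNA that hosts small nucleolar RNAs, had a difference of -1.03 (adjusted p = 0.0495) that rests on 2 pairs, because its spot on slide 1 at 24 h was marked as an outlier. Its values were 0.92, 0.94 and 0.78 at 12 h and -0.29 and -0.12 at 24 h on slides 2 and 3.

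The remaining 13 probes called lower could not be paired with a gene name here. Their HI ratios ran from 1.06 to 2.24 on slides 1 and 2 at 12 h and from 0.45 to 1.1 on slide 3. At 24 h they ran from 0.43 to 1.22 on slides 1 and 2 and from -0.88 to 0.15 on slide 3, which was the lowest array for all 13 at both times. The probe listed as AK132033 was the most changed of the 27, with 2.10, 2.24 and 1.1 at 12 h and 0.55, 1.21 and -0.52 at 24 h (difference -1.40, SE 0.204, adjusted p = 0.0474). Whether several of them read the same transcript was not tested.

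The 7 probes that rose were near or below the naive level at 12 h. Myo1f, an unconventional myosin of leukocytes and microglia, had HI ratios of -0.06, -0.07 and 0.35 at 12 h and 1.02, 0.98 and 1.01 at 24 h, a difference of 0.93 (SE 0.115, adjusted p = 0.0474). Trem2, the lipid-sensing receptor through which microglia take up debris, went from 0.24, -0.28 and -0.04 to 0.82, 0.76 and 0.90 (difference 0.85, SE 0.126, adjusted p = 0.0474). For both genes the 12 h values scattered around 0 while the 24 h values were nearly equal on the 3 slides. Trem2 signals in the HI channel were 836, 1140 and 935 at 12 h and 1050, 1270 and 1830 at 24 h.

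Fam111a, a protease that acts at replication forks, rose by 0.77 (SE 0.115, adjusted p = 0.0474), from 0.27, -0.13 and -0.28 to 1.15, 0.34 and 0.70. Sdf2l1, a chaperone cofactor of the endoplasmic reticulum, rose by 0.63 (SE 0.0849, adjusted p = 0.0474), from -0.05, -0.18 and -0.23 to 0.49, 0.51 and 0.43. Myo1f, Trem2 and Fam111a were called higher than naive at 24 h (2.0% of all tested probes were), and none of the 7 was so at 12 h (3.51%).

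The other 3 were below the naive level at 12 h. Mas1, the receptor for angiotensin 1-7, was the only one of the 7 called lower than naive at 12 h, with HI ratios of -0.88, -1.09 and -0.81, against -0.39, -0.46 and -0.08 at 24 h (difference 0.62, SE 0.088, adjusted p = 0.0495). Dbp, a clock output transcription factor, went from -0.56, -0.73 and -0.38 to -0.04, 0.18 and 0.40 (difference 0.73, SE 0.103, adjusted p = 0.0474). A second Dbp probe moved the same way (0.52) without passing the test (adjusted p = 0.128). For Ankrd27, a regulator of endosome traffic, the 2 probes disagreed: the dimmer probe was called (0.67, adjusted p = 0.0474) and the brighter was not (0.06, adjusted p = 0.808).

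**Figure D1:**
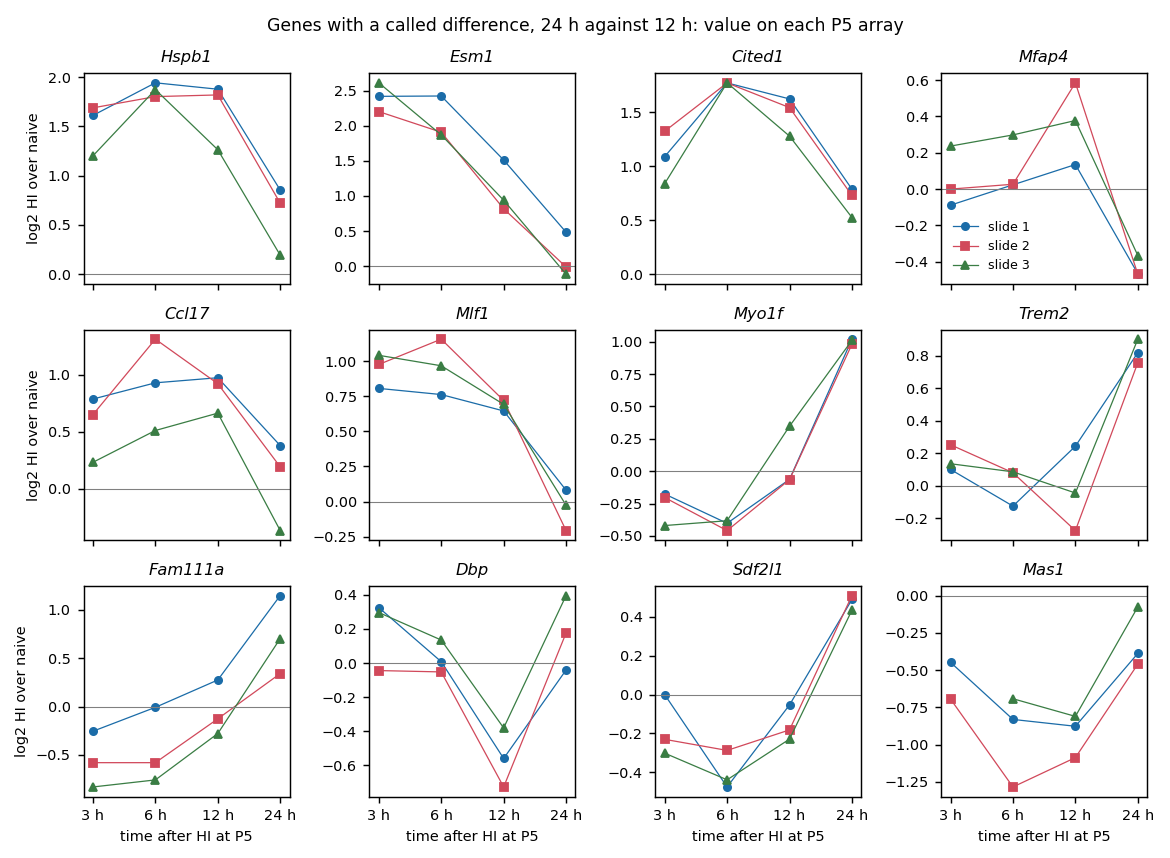
HI ratio (log2 HI over naive) of 12 named genes with a called difference, on each P5 array at 3, 6, 12 and 24 h; each line joins the arrays of 1 slide, the grey line marks 0 and the vertical scales differ. Hspb1, Esm1, Cited1, Ccl17 and Mlf1 fell between 12 and 24 h from levels already reached by 3 or 6 h, whereas Myo1f, Trem2 and Sdf2l1 had their 3 highest values at 24 h.

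Each channel was also tested by itself, with signals scaled to the 75th percentile of their array. The HI channel had 32 probes called between 12 and 24 h (0.168%), 5 higher (0.0262%) and 27 lower (0.142%). That count fell to 0 without the block and ranged from 9 to 102 when 1 array was left out. The naive channel had 0 called by limma, with 850 probes at an unadjusted p under 0.05 (4.46%), against 2204 in the HI channel (11.6%). All 20 probes called lower had a lower HI signal at 24 h and all 7 called higher had a higher one, and for 25 of the 27 the HI signal moved further than the naive signal. Ccl17 and Fam111a were the 2 exceptions. For Ccl17 the naive signal was 0.46 higher and the HI signal 0.33 lower at 24 h (change of HI signal -0.33).

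**Figure D2:**
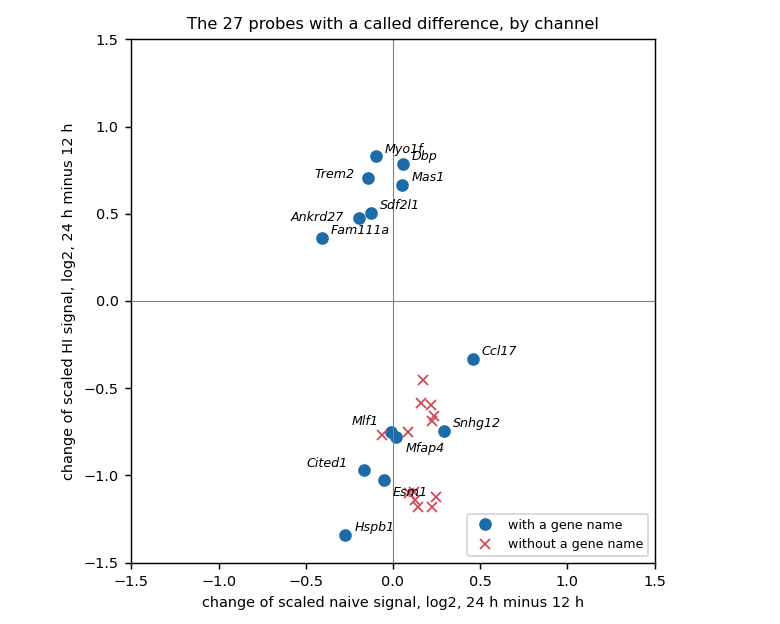
Change of the scaled signal between 12 and 24 h (log2) in the naive channel (horizontal) and the HI channel (vertical) for the 27 called probes, by limma estimate, with circles for probes with a gene name and crosses for those without. The changes of HI signal spread from -1.34 (Hspb1) to 0.83 (Myo1f), those of naive signal from -0.41 (Fam111a) to 0.46 (Ccl17).

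Against naive, 669 probes were called higher at 12 h (3.51%) and 320 lower (1.68%), and at 24 h 381 higher (2.0%) and 91 lower (0.477%). Both times called 299 probes higher and 54 lower, and no probe was called in opposite directions. A call at one time and not at the other is no test of the difference. To follow a set chosen on other arrays, the 565 probes called higher at 6 h (2.96%) were taken: their median HI ratio was 0.80 at 12 h and 0.46 at 24 h. Their median difference was -0.34 (-0.45, -0.18 and -0.42 on slides 1, 2 and 3), and 86.4% of them were below 0, against 45.0% of all tested probes. The 211 probes called lower at 6 h (1.11%) moved the other way, from a median of -0.45 to -0.17, with 95.3% above 0 against 55.0% of all tested probes. Both inductions and repressions of 6 h were thus smaller at 24 h than at 12 h on each slide.

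Genes of 28 lists, 17 of pathways and 11 of cell type markers, were then read in the same fit, with 1 probe per gene. Among probes with a gene name, Ccl17, Hspb1, Sdf2l1, Dbp and Trem2 were the only list genes with a called difference. The 13 called probes without a gene name could not be placed in a list. What follows therefore gives medians and values, and the median of all tested probes (0.02) stands as their background. Genes that naive tissue hardly expresses could pass the signal filter only through an HI channel in which they were high. Tested were 14 of 23 chemokines, 16 of 30 cytokines and receptors, 7 of 15 neutrophil markers and 13 of 24 activated microglial genes. In such lists the shares called higher than naive, and falls from a high 12 h value, are partly set by the filter. The brightest genes of each list and the most extreme ratios were named by rule, and the other genes shown as examples were chosen after their values were seen.

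Immediate early genes were mostly lower at 24 h. Of 25 tested, 0 were called by limma and 14 were lower at an unadjusted p under 0.05 (5.49% of all tested probes were) and 1 was higher (8.18%). The list median went from 0.64 at 12 h to 0.10 at 24 h, with a median difference of -0.48. Called inductions numbered 13 at 12 h (3.51% of all tested probes) and 4 at 24 h (2.0%). Fos, a subunit of the AP-1 transcription factor, had HI ratios of 3.59, 2.76 and 3.72 at 12 h and 1.29, 2.23 and 1.73 at 24 h (difference -1.61, SE 0.274, adjusted p = 0.0681). The times did not overlap, yet the pair of slide 2 differed far less than the others. Gadd45g, a stress sensor, went from 1.42, 0.88 and 0.94 to 0.11, 0.55 and 0.11 (-0.82, adjusted p = 0.0965), and Npas4, the activity-dependent factor of neurons, from 1.52, 0.71 and 1.12 to 0.10, 0.61 and 0.13 (-0.84, adjusted p = 0.195). Egr4 differed from these in being called lower than naive at both times, at -1.02, -1.42 and -0.87 and then -1.12, -0.45 and -0.26. The brightest members, Jund (difference -0.26) and Klf6 (0.08), were not called against naive at either time. By slide the list median difference was -0.75, -0.03 and -0.34, so that slide 2 showed almost none of it.

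Heat shock and unfolded protein genes did not share a direction. The median difference of 28 tested genes was -0.03, with Hspb1 called lower and Sdf2l1 called higher. Hspa1a, the inducible Hsp70, had a larger difference than Hspb1 but a larger error: 1.52, 1.32 and 1.22 at 12 h against -0.30, -0.03 and -0.28 at 24 h (-1.56, SE 0.314, adjusted p = 0.104). Ppp1r15a, which restarts translation after stress, went from 0.91, 0.63 and 0.78 to 0.12, 0.27 and -0.05 (-0.66, adjusted p = 0.0847). The small heat shock gene Hspb8 was called higher than naive at both times, with 1.60, 1.16 and 1.25 and then 1.24, 1.60 and 1.00. Constitutive chaperones such as Hspa8 (difference 0.02) and Hsp90aa1 (-0.03) sat near 0.

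Chemokines had the highest median HI ratio of the 28 lists at both times. Of 14 tested, 10 were called higher than naive at 12 h (3.51% of all tested probes) and 9 at 24 h (2.0%), only Ccl17 had a called difference, and the list median went from 2.84 to 2.18 (median difference -0.72). Cxcl10, the interferon-induced ligand of Cxcr3, had HI signals of 1030, 1290 and 664 at 12 h and 443, 379 and 128 at 24 h, while its naive signals lay between 3.6 and 17.7. The naive channel was well above background on 1 array at 12 h and on none at 24 h, so that its HI signal was at least 28.7-fold above naive at 24 h, and its difference of -1.45 (adjusted p = 0.153) rests on naive signals below background. Cxcl1, which recruits neutrophils, was at least 23.0-fold above naive at 12 h, and its HI signal was well above background on 2 of 3 arrays at 24 h. Ccl2, the main monocyte attractant, had HI ratios of 4.69, 3.87 and 4.52 and then 3.94, 4.12 and 2.91 (-0.70, adjusted p = 0.363). Ccl4 had 6.26, 5.35 and 5.27 and then 5.47, 4.83 and 3.94, with a naive signal well above background on 2 of 3 arrays at each time. Cx3cl1, the neuronal chemokine and brightest of the list, was not called against naive at either time (difference -0.05).

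Neutrophil markers differed by slide. Calprotectin subunit S100a9 had HI ratios of 2.73, 2.81 and 1.72 at 12 h and 0.40, 3.18 and -0.58 at 24 h, and S100a8 had 2.83, 2.63 and 1.86 and then 0.69, 3.37 and -0.23. In both, the slide 2 pool was far above the others at 24 h. Csf3r, the receptor for granulocyte colony-stimulating factor and brightest marker, did not share this order, with -0.06, 0.16 and 0.81 and then 0.15, -0.11 and -0.60. The median difference of the 7 tested markers was -0.95 on slide 1, 0.30 on slide 2 and -1.41 on slide 3. The acute phase protein Saa3 followed the same order, with HI signals of 55.0, 388 and 39.6 at 24 h, and was at least 18.5-fold above naive at 12 h and at least 10.5-fold at 24 h. The cytokine Il6 was at least 16.1-fold above naive at 12 h with HI signals of 144, 86.7 and 130. At 24 h its HI signal was well above background on 1 of 3 arrays, that of slide 2 (76.4, against 14.8 and 14.5). The part of leukocyte content in the chemokine and cytokine values was not tested.

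Interferon-stimulated genes declined on slides 1 and 3 (median differences -0.69 and -0.60) and not on slide 2 (0.24). Of 26 tested, 19 were called higher than naive at 12 h (3.51% of all tested probes) and 16 at 24 h (2.0%). By limma 0 had a called difference, and 9 were lower at an unadjusted p under 0.05 (5.49%). Mx1 and Mx2, also of the list, had no probe paired with their names here. Whether any of the probes without a gene name, called or not, read them was not tested. Rsad2, the antiviral enzyme viperin, had HI ratios of 2.42, 1.76 and 1.71 at 12 h and 1.24, 0.62 and 0.53 at 24 h (-1.16, adjusted p = 0.076), lower in every pair, with the naive signal well above background on 2 of 3 arrays at 12 h. Ifit3, which binds foreign RNA, went from 1.95, 1.78 and 1.91 to 1.09, 1.05 and 0.70 (-0.93, adjusted p = 0.127). The immunoproteasome subunit Psmb8 had 0.70, 0.17 and 0.95 and then 0.27, 1.16 and 1.14. The brightest members Ifi27 (difference 0.00) and Stat2 (0.07) were not called at either time. In complement and MHC genes, 6 of 13 were called higher at each time (3.51% of all tested probes at 12 h, 2.0% at 24 h). Their median difference was -0.01.

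The promoter of Cxcl10 is shown for its matches to an interferon-stimulated response element (the first capitals) and an NF-kB site (the later capitals), both searched on both strands (RefSeq, GRCm38.p6, chr5:92348890-92349139, minus strand):
Cxcl10: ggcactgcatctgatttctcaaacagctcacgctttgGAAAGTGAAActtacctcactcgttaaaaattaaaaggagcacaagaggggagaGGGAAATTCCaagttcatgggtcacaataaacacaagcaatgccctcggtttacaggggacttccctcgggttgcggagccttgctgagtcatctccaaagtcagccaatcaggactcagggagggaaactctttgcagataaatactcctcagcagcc
The interferon element was present in 14 of 29 promoters of the list (48.3%) and in 3.46% of the 27025 promoters. The 10 tested genes with it had a median HI ratio of 1.35 at 12 h and 0.87 at 24 h, and the 11 without it 0.62 and 0.65. The median difference was below 0 in both groups, -0.43 with it and -0.16 without it. These medians were not tested against each other.

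**Figure D3:**
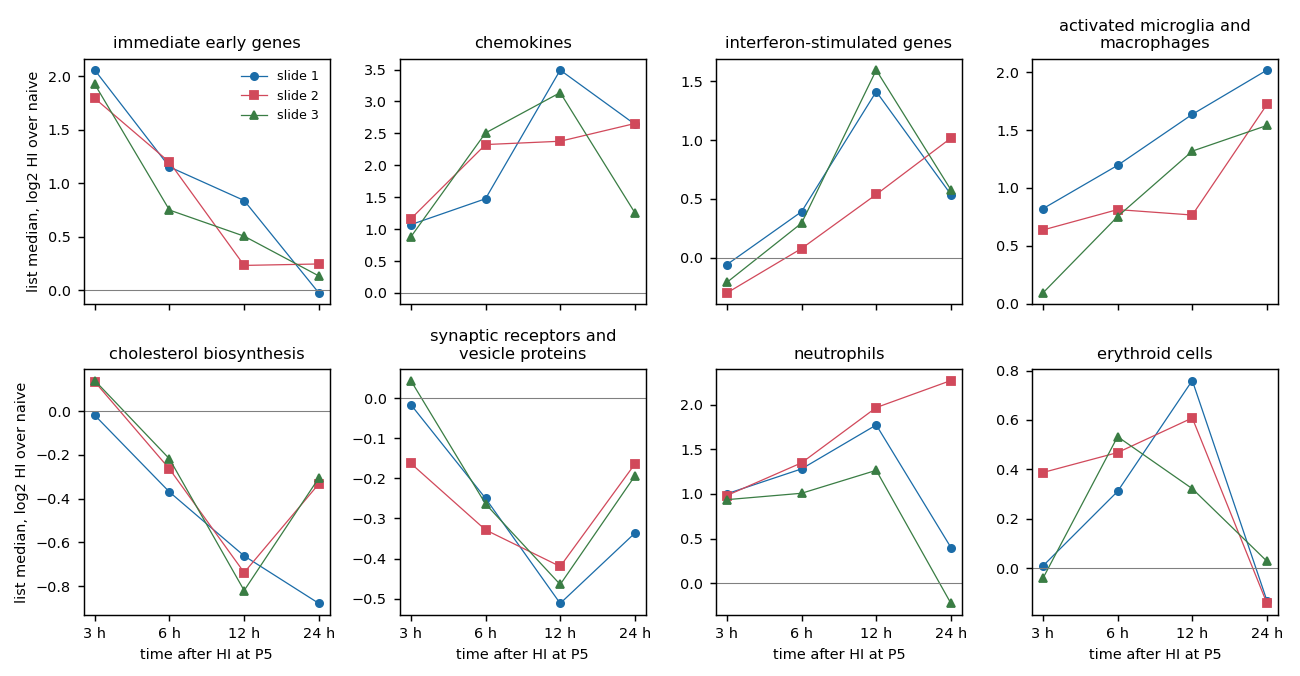
Median HI ratio (log2 HI over naive) of 8 gene lists on each P5 array at 3, 6, 12 and 24 h; each line joins the arrays of 1 slide and the vertical scales differ. Immediate early genes descended from 3 to 12 h on every slide, and interferon-stimulated genes peaked at 12 h on slides 1 and 3 but not on slide 2. Cholesterol genes were still below 0 at 24 h, nearer to it than at 12 h on slides 2 and 3 but not on slide 1.

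Most activated microglial genes were called above naive at both times. Of 24 genes of activated microglia and macrophages, 13 were bright enough to be tested, in part through their HI signal. Of these 13, 9 were called higher than naive at 12 h (3.51% of all tested probes) and 11 at 24 h (2.0%). By limma 0 had a called difference, and 3 were higher at an unadjusted p under 0.05, as were 8.18% of all tested probes. The list median went from 1.20 to 1.70. The median difference was 0.27 (-0.11, 0.78 and 0.02 on slides 1, 2 and 3), and -0.06 with normexp and loess. Gpnmb, a glycoprotein of lipid-laden phagocytes, had HI signals of 71.6, 127 and 104 at 24 h and was at least 9.01-fold above naive. Spp1 (osteopontin) had HI ratios of 3.11, 1.19 and 2.84 at 12 h and 3.28, 3.25 and 2.68 at 24 h, and Lyz2 (lysozyme) 1.64, 0.09 and 0.66 and then 3.38, 1.48 and 0.25. Both were lower at 24 h on slide 3 and higher on the other slides, and neither passed the test. The naive signal of Lyz2 was well above background on 2 of 3 arrays at each time. The signalling adaptors Tyrobp (0.27) and Fcer1g (0.37), the brightest of the list, were lower at 24 h on slide 1 and higher on slides 2 and 3. Lilrb4a, an inhibitory receptor of myeloid cells, had 6.03, 2.92 and 4.70 and then 4.95, 4.56 and 4.14, with the naive signal well above background on 1 array at 12 h and 2 at 24 h.

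Markers of resting microglia were mixed, with a median difference of 0.19 over 15 genes. Of these, 9 had a difference above 0 (55.0% of all tested probes) and 6 below it, the lowest at -0.58. Sparc, for example, had -0.21. Against naive, 2 were called higher at 12 h (3.51% of all tested probes) and 4 lower (1.68%). At 24 h 3 were called higher (2.0%) and 2 lower (0.477%). The members shown next all had differences above 0. The purinergic receptor P2ry12, by which ramified microglia sense nucleotides, had the lowest mean ratio at 12 h of all 12250 named genes tested, by their brightest probes (-1.29, -1.21 and -1.84) and was still at -1.35, -1.09 and -1.02 at 24 h (difference 0.29, adjusted p = 0.46). The related receptor P2ry13 went from -0.85, -0.93 and -1.28 to -0.28, -0.59 and -0.41 (0.60, adjusted p = 0.0969). Gpr34, a lysophosphatidylserine receptor, went from -0.11, -0.35 and -0.25 to 0.32, 0.28 and 0.32. Its adjusted p was 0.0474, and its difference of 0.54 was under the 1.5-fold limit. Trem2 was the only gene of the list with a called difference. Crybb1, a crystallin that microglia also express, was called lower at both times, with -0.51, -0.79 and -1.41 and then -0.97, -1.28 and -0.98. Tgm1, a transglutaminase, had HI signals of 80.7, 35.1 and 33.7 at 12 h (at least 5.64-fold above naive) and 63.9, 247 and 65.0 at 24 h (at least 10.9-fold). Phox2a, a homeobox factor of autonomic neurons, was at least 18.4-fold above naive at 12 h, with HI signals of 205, 122 and 97, and its naive signal was well above background on 1 array at 24 h.

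Astrocyte markers had a median difference of 0.00, within which Gfap, the intermediate filament of reactive astrocytes, had HI ratios of 1.29, 0.69 and 0.67 at 12 h and 1.40, 2.21 and 2.47 at 24 h (1.15, adjusted p = 0.238). The pair of slide 1 differed least. The water channel Aqp4 had 0.27, 0.08 and 0.46 and then 0.37, 0.76 and 1.23 (0.52, adjusted p = 0.207). The brightest markers Fabp7 (-0.06) and Aldoc (0.14) were not called against naive at either time.

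Cholesterol biosynthesis was repressed, less at 24 h than at 12 h on slides 2 and 3. Of 21 enzymes tested, 15 were called lower than naive at 12 h (1.68% of all tested probes) and 8 at 24 h (0.477%), none higher, and 0 had a called difference by limma (4 were higher at an unadjusted p under 0.05, as were 8.18% of all tested probes). The list median difference was 0.25, made of -0.26 on slide 1, 0.35 on slide 2 and 0.55 on slide 3. Mvd, which makes isopentenyl diphosphate, had HI ratios of -1.05, -1.0 and -1.26 at 12 h and -1.08, -0.26 and -0.21 at 24 h (0.59, adjusted p = 0.232). Sqle (squalene epoxidase) had -1.16, -1.06 and -1.40 and then -1.5, -0.60 and -0.42. Idi1 and Msmo1, of the same pathway, had differences of 0.33 and 0.38. On slide 1 the 24 h value of all 4 was lower than at 12 h. Hmgcs1, the brightest gene of the list, had -0.83, -0.77 and -0.76 and then -1.33, -0.67 and -0.41, a difference of -0.02 (SE 0.141, adjusted p = 0.969). Abca1, which exports cholesterol and belongs to the sterol transport list, was called higher at both times, with 0.64, 0.63 and 0.75 and then 1.08, 1.08 and 1.25 (0.46, adjusted p = 0.0651), the opposite sign to the enzymes.

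The promoter of Hmgcs1 is shown because it was the only one of 16 matched promoters of the list that held the sterol regulatory letters TCACNCCAC on either strand, in capitals (RefSeq, GRCm38.p6, chr13:119690101-119690350, plus strand):
Hmgcs1: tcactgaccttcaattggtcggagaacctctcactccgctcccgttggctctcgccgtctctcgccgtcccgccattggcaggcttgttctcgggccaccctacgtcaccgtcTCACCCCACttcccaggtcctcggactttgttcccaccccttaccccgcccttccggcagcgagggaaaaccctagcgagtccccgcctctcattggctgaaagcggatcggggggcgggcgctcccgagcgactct
These letters were present in 1.22% of the 27025 promoters, and their absence elsewhere says nothing of the factor.

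Synaptic genes were mostly below naive, and less so at 24 h. Of 34 genes for synaptic receptors and vesicle proteins, 30 had a difference above 0, against 55.0% of all tested probes, and in 12 the 24 h arrays lay wholly above the 12 h arrays (9.4% of all tested probes did). The median difference was 0.17 (0.13, 0.17 and 0.28 by slide), and no gene had a called difference. Called repressions against naive numbered 11 at 12 h (1.68% of all tested probes) and 2 at 24 h (0.477%). Grm5, a metabotropic glutamate receptor, went from -0.75, -0.39 and -0.56 to -0.33, -0.05 and -0.12 (0.40, adjusted p = 0.153). The GABA receptor subunit Gabra4 went from -0.67, -0.64 and -0.60 to -0.39, -0.39 and -0.22 (0.30, adjusted p = 0.158). The vesicle calcium sensor Syt1, the brightest of the list, had -0.80, -0.65 and -0.71 and then -0.68, -0.40 and -0.36 (0.24, adjusted p = 0.2). Camk2a stayed low on slides 1 and 2, with -0.90, -0.90 and -0.62 and then -1.14, -0.85 and 0.04.

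Axon guidance genes had a median difference of 0.16 over 29 genes, with 22 above 0 (55.0% of all tested probes) and 9 whose 24 h arrays lay wholly above the 12 h arrays (9.4%). The semaphorin Sema3e went from -1.17, -0.63 and -0.68 to -0.53, -0.15 and 0.31 (0.70, adjusted p = 0.134), and the Slit receptor Robo1 from -0.66, -0.37 and -0.63 to -0.33, -0.11 and 0.12 (0.44, adjusted p = 0.204). Of the brightest members, the netrin receptor Dcc had -0.29, 0.20 and 0.84 and then -0.07, 0.05 and -0.52 (-0.43, adjusted p = 0.488), against the direction of the list, and the ephrin Efnb3 had a difference of 0.08. General neuron markers had a median difference of 0.10 over 15 genes. Tubb3, the neuronal tubulin, stayed at -0.91, -0.95 and -1.17 and then -1.21, -0.88 and -0.65, and was called lower at both times. Stmn2, the brightest neuron marker, had a difference of -0.02.

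**Figure D4:**
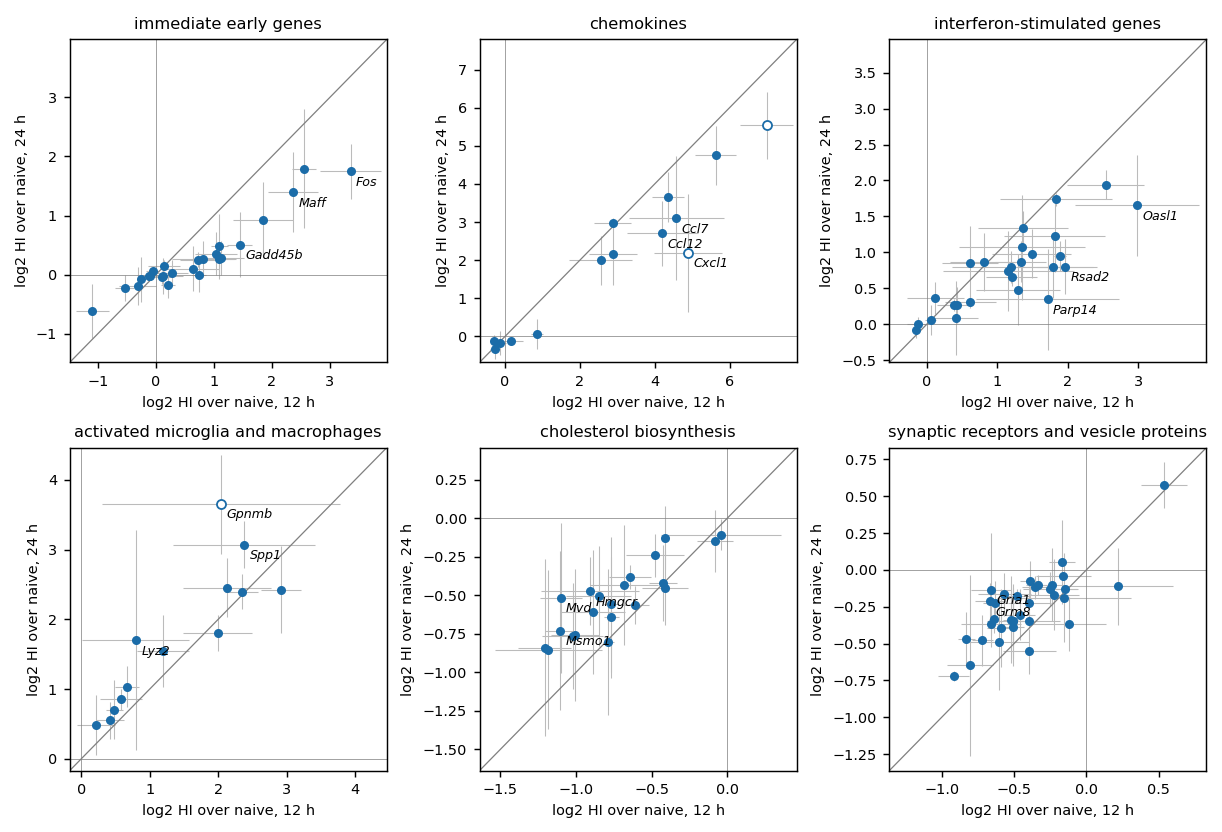
Mean HI ratio (log2) at 12 h (horizontal) against 24 h (vertical) for the genes of 6 lists, with SD over 3 arrays as bars and the line of equal ratios in grey; open circles mark genes whose naive signal was not well above background on any array of a time, and the genes furthest from the line are named. Immediate early genes, chemokines and interferon-stimulated genes lie mostly under the line, and most cholesterol and synaptic genes, mostly below 0, lie above it.

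Hypoxia and glycolysis genes had a median difference of 0.05 over 28 genes, and no member had a called difference. Against naive, 2 were called higher (3.51% of all tested probes) and 1 lower (1.68%) at 12 h, and 1 was called lower at 24 h (0.477%). Vegfa, the vascular growth factor, had HI ratios of 0.20, 0.08 and 0.28 at 12 h and -0.22, -0.20 and -0.34 at 24 h (-0.44, adjusted p = 0.0847). Apln, the endothelial peptide apelin, had -0.18, -0.62 and -0.26 and then -1.72, -1.14 and -0.62, which gave the lowest mean ratio at 24 h of all 12250 named genes tested, by their brightest probes (-1.16 ± 0.55, SD, n = 3). Adm (adrenomedullin) had 1.51, 0.79 and 0.49 and then 0.62, 0.13 and 0.21. The glycolytic enzymes Gapdh (0.10) and Aldoa (0.06) hardly differed. Endothelial and mural markers had a median difference of -0.18 over 12 genes, with Kdr, the VEGF receptor, at -0.21 and Cldn5, a tight junction protein, at -0.38 (adjusted p = 0.247), and in the extracellular matrix list, with -0.24 over 27, Emp1, a membrane protein of epithelia and vessels, went from 2.31, 1.73 and 1.97 to 0.80, 1.41 and 0.76 (-1.01, adjusted p = 0.0965).

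Red cell transcripts were lower at 24 h without passing the test. The globin Hbb-bs had HI ratios of 1.75, 1.27 and 0.34 at 12 h and 0.03, -0.07 and 0.07 at 24 h (-1.11, adjusted p = 0.114), and Hba-a1 had 1.33, 0.83 and 0.31 and then -0.01, -0.14 and -0.01 (-0.88, adjusted p = 0.1). All 6 tested erythroid genes were lower at 24 h, with a median difference of -0.68 (-1.12, -0.75 and -0.22 by slide), and in 4 of them the 24 h arrays lay wholly below the 12 h arrays (5.21% of all tested probes did). Against naive, 3 of the 6 were called higher at 12 h (3.51% of all tested probes) and 0 at 24 h (2.0%). The part of blood content in the lower ratios of chemokines, vessel genes and leukocyte markers was not tested.

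Of the other lists, the median difference was -0.25 for cytokines and receptors (16 genes), -0.20 for glucocorticoid-responsive genes (15), -0.03 for p53 targets and apoptosis (23), -0.02 for oxidative stress and metallothioneins (19), 0.01 for the circadian clock (13), 0.05 for the oligodendrocyte lineage (12), 0.08 for the cell cycle (25), 0.08 for sterol regulation and transport (17), -0.06 for choroid plexus (9) and -0.10 for lymphocytes (4). None of these had a member with a called difference except Dbp of the clock list. In the first of them Socs3, the feedback inhibitor of cytokine receptors, went from 1.58, 1.33 and 1.43 to 0.61, 1.26 and 0.82, and in the second the metallothionein Mt2 had 2.55, 1.71 and 1.68 and then 1.81, 1.53 and 1.36.

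**Figure D5:**
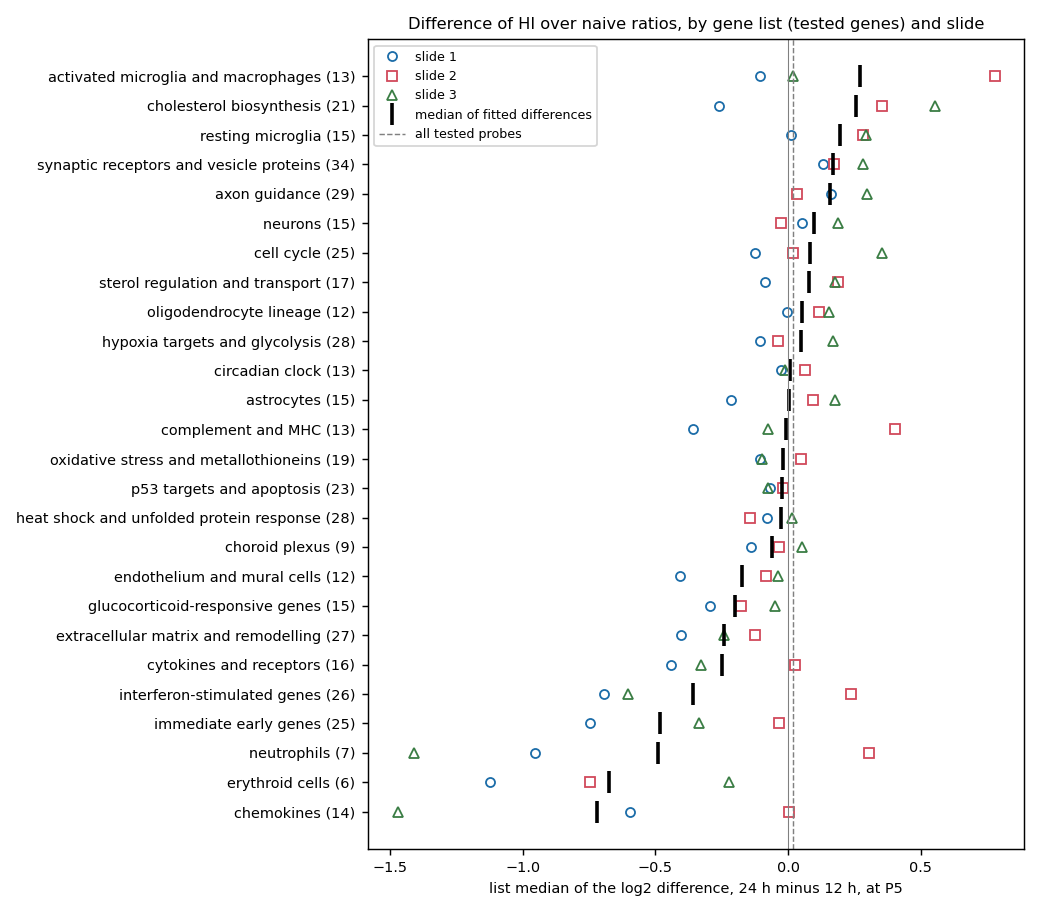
Median of the 24 h minus 12 h difference (log2) of each gene list with at least 6 tested genes, by slide (open symbols), with the median of the fitted differences (bar); the number of tested genes is in parentheses and the dashed line is the median of all tested probes. Chemokines (-0.72), erythroid cells (-0.68), neutrophils (-0.49) and immediate early genes (-0.48) are at the low end, and slide 2 lies to the right of the others for chemokines, neutrophils and interferon-stimulated genes.

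The same difference was read in 10-day-old mice (P10), whose arrays used other animals and other slides. As at P5, the 12 h array was at position 3 and the 24 h array at position 4 of every slide. Time and position thus cannot be told apart at P10 either. At P10, 745 probes were called higher at 24 h (3.9%) and 1185 lower (6.21%). The P10 array of replicate 1 at 12 h stood apart, with 85.1% of naive and 91.9% of HI probes well above background. The other P10 arrays at 12 and 24 h had 64.6% to 70.7% and 68.4% to 79.5%. The part of that array in these counts was not tested. All 20 probes called lower at P5 were also below 0 at P10 and 16 of them were called lower, and all 7 called higher were above 0 with 5 called higher. Over all tested probes 32.6% were below and 67.4% above 0 at P10. The median P10 difference was -1.20 for the 20 and 0.64 for the 7. Myo1f, for example, had a P10 difference of 1.44 and Mlf1 of -0.75. Taken from the other side, the 1185 probes called lower at P10 had a median P5 difference of -0.31, and its parts by slide were 0.12, -0.17 and -0.87, while the 745 called higher had 0.18 (0.10, 0.12 and 0.32).

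When the P5 and P10 differences were tested against each other, limma called 1 probe (0.00524%), Clstn3, and 2260 at an unadjusted p under 0.05 (11.8%). Clstn3, a synaptic calsyntenin, had P5 ratios of -0.67, -0.57 and -0.47 at 12 h and -0.61, -0.38 and -0.20 at 24 h, and P10 ratios of 0.18, -0.06 and 0.50 and then -0.56, -0.48 and -0.25. At P5 it was thus low at both times, and at P10 only at 24 h.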

How the data were processed

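Whole-genome 2-colour arrays were read. The deposited scanner files hold processed intensity per channel and a log10 ratio of red over green per spot, made by the authors with Agilent Feature Extraction 10.5.1.1, per the file headers background-subtracted and dye-normalized, and the deposited series value table holds the same log10 ratios, with a largest difference of 0. Cy5 (red) was HI and Cy3 (green) naive. Ratios were recomputed as log2 of the processed intensities, with control and outlier spots left out and repeat spots averaged. The number of arrays, 3 pools a time, limits the precision, and p-values measure the spread between these pools.

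The 12 P5 HI arrays were fitted together in R 4.3.3 with limma 3.58.1 (statmod 1.5.0), with time as factor, slide as a block and Benjamini-Hochberg adjustment over all 19079 tested probes. A call needed an adjusted p under 0.05 and a difference over 1.5-fold. Channels were tested on log2 signals scaled to the 75th percentile, and ages on the 24 HI arrays. The pairing comes from the slide, which the file headers give: deviations of same-slide arrays from their time's mean correlated at 0.217, 0.0721 and 0.116. Tested on simulated data, the fit recovered 90 of 100 changed probes at a true log2 difference of 1 and 98 of 100 at 2, with 2 false calls. The changed probes were drawn at random and each value had independent noise, without deviations shared across an array. These shares therefore do not give the power of the comparison in the real arrays.

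RefSeq accessions named 27421 probes, and 12008 kept the file's name. A gene is represented by its brightest tested probe. Named by rule were called genes that moved alike in all 3 pairs, called list genes or otherwise the brightest of a list, the 5 highest and lowest ratios among called genes at each time, and genes called between ages. "At least" folds take the higher of the naive signal and the lowest signal well above background on each array. Promoter sequences are RefSeq's, and motifs were searched in the 250 bases before the start. The members, lists and tests were chosen with earlier results of these data known.

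Alternatives were the block (none or random), the arrays fitted, the signal filter, centring, the value table, normexp (offset 50) with loess, the methods' t-test and fold rule, and leaving out each array.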

Additional observations from a re-analysis of the deposited data

Results flagged for a closer look

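Clstn3 was the only probe whose 24 h minus 12 h difference differed between ages by limma's test of that difference (P5 minus P10 0.81, SE 0.107, adjusted p = 0.0348). The P5 difference was 0.17 and the P10 difference -0.64. Without the block 0 probes were called, with 1640 at an unadjusted p under 0.05. Leaving out any 1 of the 6 P5 arrays at these times also ended the call. So did leaving out the P10 array of replicate 1 at 12 h, which stood apart, of replicate 3 at 12 h or of replicate 1 at 24 h. The call was kept without the P10 array of replicate 2 at either time or of replicate 3 at 24 h.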

How the results depend on the processing

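Calls of the 24 h minus 12 h difference (7 higher, 20 lower) depended on the design. Without the replicate block, which pairs the arrays of a slide, limma called 0 higher and 0 lower (1768 probes at an unadjusted p under 0.05), 0 in the HI channel (159), 0 in the naive channel (9) and 0 between ages (1640), and against naive 643 higher and 315 lower at 12 h and 348 and 85 at 24 h. With slide as a random block it called 10 and 12, of which 9 were among the 27. It called 0 and 0 with only the 6 arrays (1933 at an unadjusted p under 0.05), with all 24 HI arrays (1372), with no filter (2926) and with probes well above background (2862). The value table gave 6 and 20, centring 6 and 22, and normexp with loess 0 and 17. The methods' t-test gave 25 and 46 unadjusted and 0 and 0 adjusted, and a 2-fold change in 2 of 3 pairs 17 and 67. The cause of these changes was not tested. Leaving out 1 array at a time gave 0 to 2 higher and 0 to 23 lower, 9 to 102 in the HI channel, 0 to 1 in the naive channel and 0 to 20 between ages, and against naive 263 to 493 lower at 12 h (493 without the slide 2 array) and 90 to 137 lower at 24 h (137 without the slide 3 array). Chosen after seeing the data, leaving out slide 1 or slide 2 gave 0 and 0, leaving out slide 3 gave 0 and 1, and raising signals to background gave 7 and 20. None of the 33 single gene values changed sign under any alternative. These genes were chosen for called or extreme values on the same arrays, so their kept sign is no test of the calls. Of the 28 list medians 12 changed sign, all within 0.1 of 0 except that of activated microglia (0.27, and -0.06 with normexp and loess). Signals near background limit the ratios of genes that naive tissue hardly expresses.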
